A study of Mus musculus with 14 samples.

Results

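Cytokines and chemokines are secreted proteins that carry signals between cells, and their receptors pass the signal on through kinases and transcription factors. Interleukins, colony-stimulating factors, interferons and the Lif and Osm family act mainly through Jak kinases and Stat factors, with Socs proteins as feedback inhibitors, while TNF family receptors act largely through NF-κB. In injured muscle these signals pass between leukocytes, stromal cells and muscle stem cells (MuSCs), the resident progenitors that rebuild myofibers. MyoD and MyoG are basic helix-loop-helix transcription factors of the muscle lineage, which bind short DNA motifs called E-boxes (CANNTG).

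The genes described here were all genes in the 12 annotated peak lists whose symbol starts as those of interleukins and their receptors (Il and a number), chemokines (Ccl, Cxcl), chemokine receptors (Ccr, Cxcr), Tnf, Tnfsf, Tnfrsf, Tnfaip, Ifn, Csf, Lif, Osm, Socs, Stat or Jak genes. Peak signal played no part in the choice of symbols, but a gene had to be assigned at least 1 listed peak. There were 26 such genes of 4386 gene IDs in the lists, with 54 of 10303 peaks. RefSeq holds 233 protein-coding genes whose symbols match, and 207 of them were assigned no listed peak. Most coding genes were likewise without one, since 3158 of all 21896 RefSeq coding genes were assigned a listed peak.

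Wild-type adult mice carried mito-Dendra2, a fluorescent mitochondrial protein, switched on by Pax7-Cre(ERT2), so only cells of the Pax7 lineage were labelled, and all animals received tamoxifen (75 mg/kg daily, 5 days). Activated MuSCs (ASCs; CD34-, Dendra2+, DAPI-) were sorted from tibialis anterior muscle 2 days after injury with BaCl2 (50 µL of 1.2%), and quiescent MuSCs (QSCs; CD34+, Dendra2+, DAPI-) from the saline-injected muscle of the other leg. Chromatin was precipitated with an antibody to MyoD or to MyoG, giving 4 groups of 3 libraries, named by cell state and antibody. Injury and the CD34 gate differed together between ASCs and QSCs, and their effects cannot be told apart. The study calls its ChIP-seq replicates biological, without saying in the sources used here which animals each library came from.

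Each list held 2262 to 2652 peaks in ASC MyoD, 605 to 916 in ASC MyoG, 139 to 174 in QSC MyoD and 120 to 167 in QSC MyoG. The lists do not give the read depth of any library, and a shallower library can yield fewer peaks. As a check of the label, 6 of 12 muscle markers (Myod1, Myog, Des, Chrna1, Mef2a and Mef2c) had a MyoD region that occurred in at least 2 ASC libraries and in no QSC library. The others (Pax7, Myf5, Cdh15, Chrng, Mef2d and Ckm) did not, and over all RefSeq coding genes the share was 5.92%. None of the 7 leukocyte markers (Adgre1, Cd68, Itgam, Csf1r, Ptprc, Spi1, Lyz2) was assigned a peak in any library, whereas 3 of the 4 endothelial markers (Cdh5, Pecam1, Tek) had such a MyoD region and the 3 fibro-adipogenic markers did not. The Cdh5 regions found in at least 2 libraries were all distal intergenic, and its intronic peak was in 1 library. Since 3158 of 21896 coding genes were assigned any peak, a lack of peaks at 7 genes says little. These are binding calls and carry no measure of expression or of the cells in the sort.

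Peaks at cytokine, chemokine and receptor genes were found mostly in ASCs and with the MyoD antibody, as were most listed peaks of all genes. ASC libraries held 51 of the 54 peaks and QSC libraries held 3, while over all genes QSC libraries held 933 of 10303. The ASC MyoD libraries held 42 of the 54, and 7210 of 10303 over all genes. The ASC MyoD libraries held 12, 9 and 21 peaks at these genes (mean 14 ± 6.25, SD, n = 3), and the QSC MyoD libraries held 1, 0 and 0 (0.333 ± 0.577). The difference was 13.7 peaks per library (SD 6.27), and the groups did not overlap. With MyoG, ASC libraries held 5, 2 and 2 peaks (3 ± 1.73) and QSC libraries 0, 1 and 1 (0.667 ± 0.577), a difference of 2.33 (SD 1.83) that fell to 1.33 without ASC MyoG replicate 1. Within ASCs, MyoD exceeded MyoG by 11 peaks per library (SD 6.48). With peaks limited to a score of at least 80, the MyoD difference between the states was 5.67 and that between the factors 4.33. No p-value is given for these sums, and 3 libraries against 3 could not give an exact permutation p below 0.1.

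ASC lists were also longer over all genes, so the share of each list is given too. These genes took 0.452% of the peaks in ASC MyoD replicate 1 (95% exact Clopper-Pearson interval 0.234 to 0.789), 0.398% in replicate 2 (0.182 to 0.754) and 0.915% in replicate 3 (0.567 to 1.39). Replicate 3 stood above the other 2, although its interval overlapped theirs. The ASC MyoG shares were 0.546% (0.177 to 1.27), 0.331% (0.0401 to 1.19) and 0.313% (0.0379 to 1.13) and their intervals overlapped those of MyoD. In QSC MyoD the share was 0.585% (0.0148 to 3.22) in replicate 1. Replicates 2 and 3 held 0 of 139 and 0 of 174 peaks, with upper interval ends of 2.62% and 2.10%. In QSC MyoG, replicate 1 held 0 of 120 peaks, with an upper interval end of 3.03%. The shares were 0.617% (0.0156 to 3.39) in replicate 2 and 0.599% (0.0152 to 3.29) in replicate 3. The intervals cover counting error of peaks only, and the shares of ASCs and QSCs could not be separated at these list sizes. More bound cells and more binding per cell cannot be told apart in these sorted populations.

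**Figure D1:**
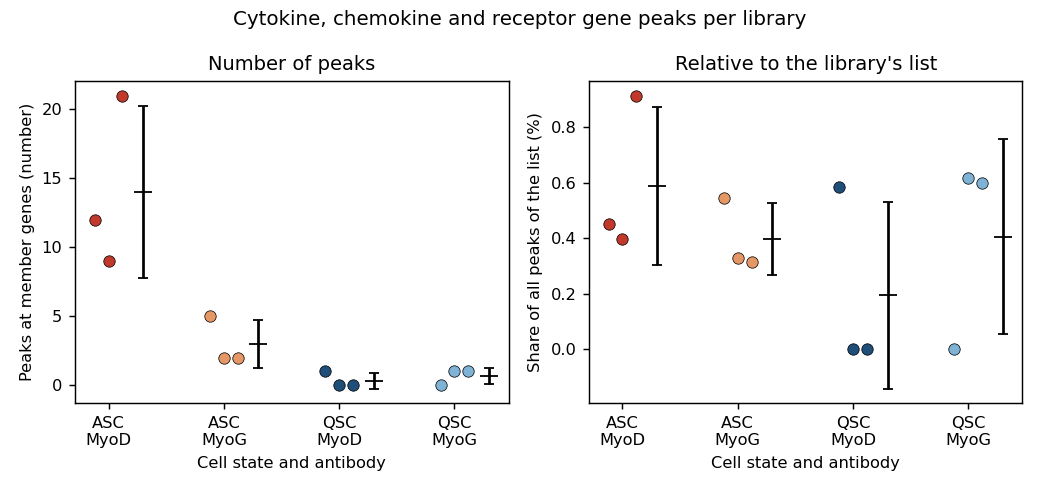
Peaks assigned to cytokine, chemokine and receptor genes in each library, as a number (left) and as a percentage of all peaks of that library's list (right). Points are the 3 libraries of each group in order of replicate, and the bars are mean ± SD. Numbers reach 21 in ASC MyoD and do not exceed 1 in QSCs, while the percentages overlap between groups.

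With MyoD in ASCs, 20 of the 26 genes had a peak in at least 1 library. The same held for 67.6% of all genes in the lists, and 20 of the 233 coding genes with matching symbols (8.58%) compare with 10.7% of all RefSeq coding genes. Peaks lay at 7 genes in all 3 libraries (Ccl1, Cxcl15, Cxcl9, Ifng, Il2, Lifr and Tnfrsf21), at 4 in 2 libraries (Cxcl12, Socs7, Stat5b and Tnfaip3) and at 9 in 1 library (Ccl25, Ccr7, Csf2rb, Csf2rb2, Il6st, Socs1, Socs2, Tnfrsf19 and Tnfrsf1b). With MyoG in ASCs, Ccr1 had peaks in 3 libraries, and Il1rapl1 and Il1rapl2 in 1 library each. With MyoD in QSCs, Il1rapl2 had a peak in 1 library, and with MyoG in QSCs, Csf2ra and Osmr had a peak in 1 library each. No gene had peaks of both factors in ASCs, and Il1rapl2 was the 1 gene with peaks in both cell states, in different places. The same shares over all listed genes were not counted, and few MyoG and QSC peaks lay at these genes. These overlap counts therefore do not set the genes apart from others.

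**Figure D2:**
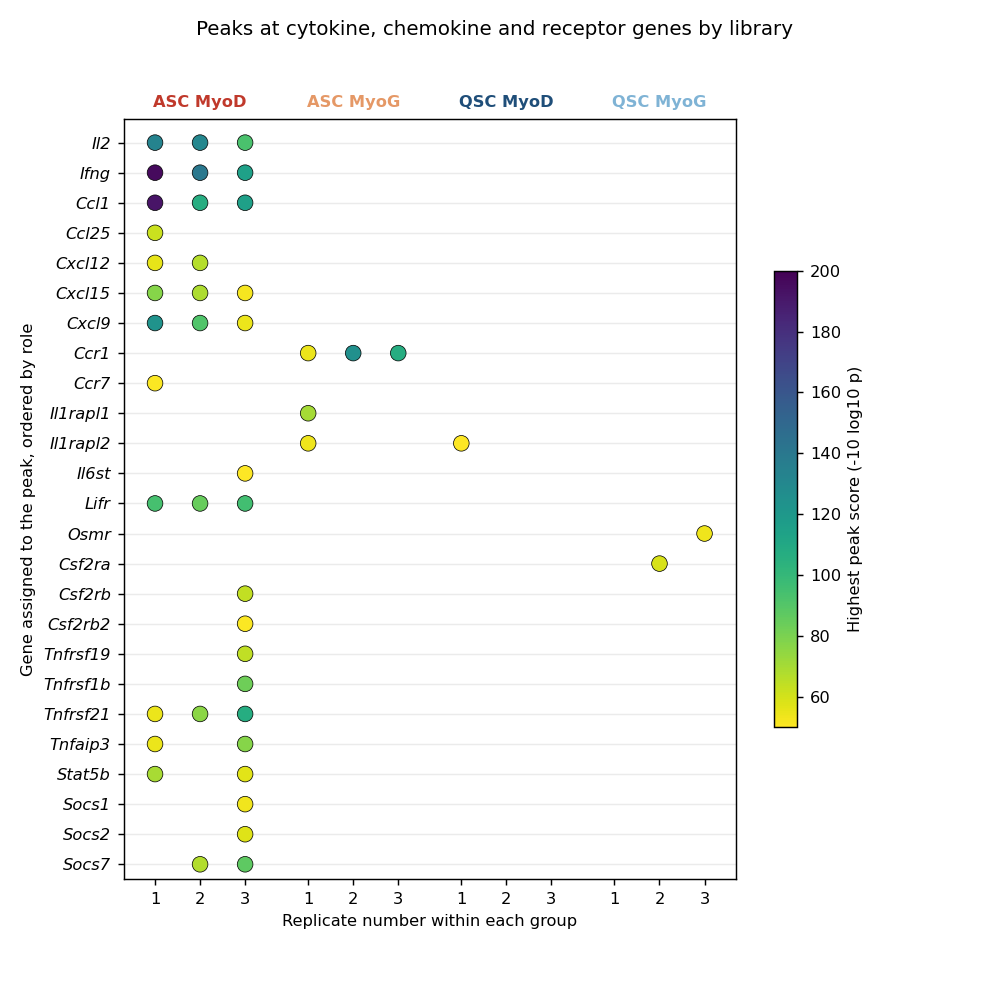
Peaks at 25 of the 26 genes (rows, ordered by role) in each of the 12 libraries (columns, by group and replicate number). A circle marks a library with at least 1 peak assigned to the gene, and its color gives the highest peak score there (minus 10 log10 p). The filled cells lie mainly in the ASC MyoD columns, and 3 circles lie in the QSC columns.

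Peaks that overlapped between libraries were merged into regions, and a region was called recurring when 2 or 3 libraries of the same group had a peak in it. Recurring MyoD regions with no QSC MyoD peak were found at 11 of the 26 genes (42.3%), beside a background of 36.8% of all genes in the lists. Counted over all coding genes with matching symbols, it was 11 of 233 (4.72%), beside 5.92% of all RefSeq coding genes. For regions present in all 3 libraries, it was 7 of 26 (26.9%) beside 22% of listed genes, and 7 of 233 (3.00%) beside 3.56% of coding genes. These shares lay near their backgrounds. The condition of no QSC MyoD peak changed little, since the QSC MyoD lists were short. Over all genes, 1620 had a recurring ASC MyoD region (1 gene counted per region), and 1615 had one without a QSC MyoD peak. For the genes described here the count was 11 with or without the condition. It therefore does not show that binding was particular to activated cells. With peaks limited to a score of at least 80, 5 of 26 genes (19.2%) had a recurring MyoD region beside 17.4% of listed genes, and 5 of 233 (2.15%) beside 2.8% of coding genes. No gene of the set had a recurring region in QSCs with MyoD, for which the background was 0.593% of listed genes and 0.0594% of coding genes, or with MyoG, for which it was 0.16% and 0.0183%.

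By role, chemokines held 4 of the 11 genes, out of 37 coding genes of that role, and no chemokine receptor of 17 was among them. Over all RefSeq coding genes the share was 5.92%, and most were assigned no peak. The counts per role are too small to set the roles apart and are a description only. Roles were set by symbol alone, so the totals follow names and not function. Il4i1 and Il4i1b were counted with the interleukins, and Il1rn and Il18bp with the interleukin receptors. Of the ligands, Il2 was the 1 recurring gene of 40 interleukins, Ifng the 1 of 26 interferons and their receptors, and none of the 13 TNF ligands was assigned any peak. Of the receptors, Lifr (of 4 Lif and Osm family genes) and Tnfrsf21 (of 20 TNF receptors) had a recurring region, and none of 43 interleukin receptors or 8 colony-stimulating factors and their receptors did. Of the signalling genes, Stat5b (of 7 Stat genes), Socs7 (of 7 Socs genes) and Tnfaip3 (of 8 Tnfaip genes) had one, and the 3 Jak genes had no peak. Genes with no listed peak included Il6, Il1b, Tnf, Il6ra, Il4ra, Tnfrsf12a, Stat3, Socs3, Lif, Osm, Ccl2 and Cxcr4, which were picked as examples after the lists had been read. Each peak was assigned to 1 gene, so a gene without one can still lie near a peak. Stat3, for example, lay within 100 kb of the recurring region assigned to Stat5b.

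Scores are the deposited minus 10 log10 p of the peak, in which the lowest listed value was 50. Scores depend on library depth, so the percentile within a library's own list, where 100 is the highest score, is given too. It is given for QSC peaks and, as a mean over libraries, for recurring regions, while single-library ASC peaks are given by score. A mean can hide a wide range, for example 17.8 to 81.5 for Cxcl9 and 11.7 to 80.2 for Tnfrsf21. Coordinates are on mm10, and distances run from the center of the region to the nearest RefSeq start of the assigned gene.

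The highest-scoring of these regions was assigned to Ifng (ENSMUSG00000055170), the interferon made mainly by T cells and natural killer cells. It lay at chr10:118639927-118641591 and scored 196.34, 139.73 and 114.49 in ASC MyoD replicates 1, 2 and 3 (mean 150 ± 41.9, SD, n = 3; mean percentile 87.9). The region was distal intergenic, 199.7 kb downstream of the Ifng start, and the next nearest coding gene, Dyrk2, was 214.8 kb away. It was the recurring region farthest from its gene, and the other 10 lay within 100 kb. Replicate 3 also held a weak Ifng peak nearer to the gene, 11.1 kb downstream of the start, with a score of 51.8.

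Il2 (ENSMUSG00000027720), a growth factor for T cells, held the single recurring region that was annotated to a promoter. At this call, 1 of 26 genes compares with 10.2% of all genes in the lists, and 1 of 233 (0.429%) with 1.66% of coding genes. The region, chr3:37127919-37128986, lay 2.50 kb upstream of the start and scored 132.98, 130.35 and 93.25 (mean 119 ± 22.2, mean percentile 81.0). The deposited annotation placed it at 2 to 3 kb from a start in replicate 1 and at 1 to 2 kb in replicates 2 and 3. Of all member peaks, none of 54 overlapped a RefSeq promoter window (250 bases before to 50 after a start). To show the reference sequence nearest to this region, the 250 bases before the Il2 start (GRCm38.p6, chr3:37125955-37126204, minus strand), which begin 1.72 kb from the region, read 5′ to 3′ as follows, with capitals reserved for CANNTG.
Il2: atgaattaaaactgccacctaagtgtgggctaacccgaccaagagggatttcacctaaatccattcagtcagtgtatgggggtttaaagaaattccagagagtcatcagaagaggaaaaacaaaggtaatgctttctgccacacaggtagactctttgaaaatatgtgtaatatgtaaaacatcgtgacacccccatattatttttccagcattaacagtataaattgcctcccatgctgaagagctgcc
No CANNTG was present in these 250 bases. The regions themselves were not searched for motifs, because no genome sequence was at hand. The promoter window counts that follow therefore do not bear on motifs at the peaks. CANNTG, which reads the same on either strand, occurred in 72.3% of all 32851 RefSeq promoter windows and in 18 of the 26 windows of the genes described here (69.2%, with 21 genes having at least 1 window). CAGCTG, a form of CANNTG, occurred in 16.3% of all windows and in 6 of these 26. CAGGTG or its reverse complement CACCTG, likewise forms of CANNTG, occurred in 20.2% of all windows and in 5 of these 26.

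Chemokine genes formed the largest group. Ccl1 (ENSMUSG00000020702), the ligand of Ccr8, had a distal intergenic region at chr11:82171389-82172335, 7.95 kb downstream of the start, with scores of 192.32, 106.41 and 115.18 (mean 138 ± 47.3, mean percentile 84.7). The next nearest coding gene, Ccl8, was 55.1 kb from it. Cxcl9 (ENSMUSG00000029417), an interferon-induced ligand of Cxcr3, had a region at chr5:92322895-92324018, annotated to the 3′ UTR, 4.62 kb downstream of the start. It scored 122.78, 91.37 and 54.36 (mean 89.5 ± 34.2, mean percentile 56.1), and the range of the 3 libraries was wide. The coding gene Art3 was 8.34 kb from this region.

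The other chemokine regions scored lower. Cxcl15 (ENSMUSG00000029375), a chemokine known from lung epithelium, was assigned chr5:90838393-90839139, which lay 44.2 kb downstream of its start and 50.7 kb from Cxcl3. It scored 77.21, 68.3 and 51.89 (mean 65.8 ± 12.8, mean percentile 35.3), the lowest mean of the regions present in all 3 libraries. Cxcl12 (ENSMUSG00000061353), the ligand of Cxcr4, was assigned chr6:117104908-117105782, 63.2 kb upstream of its start. This region had peaks in replicates 1 and 2, with scores of 55.36 and 66.88 (mean 61.1 ± 8.15, mean percentile 28.7), and none in replicate 3.

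Both recurring receptor genes had a peak in every ASC MyoD library. Lifr (ENSMUSG00000054263) encodes the receptor subunit for Lif, which pairs with Il6st. Its region, chr15:7118600-7119571, scored 94.5, 84.96 and 95.21 (mean 91.6 ± 5.72, mean percentile 68.7), the narrowest spread of the regions found in 3 libraries. The deposited annotation called it distal intergenic, while it lay within the RefSeq span of Lifr and 10.5 kb upstream of the nearest RefSeq start. Tnfrsf21 (ENSMUSG00000023915), a TNF receptor with a death domain, had a region in intron 4 of 5 at chr17:43076723-43077739, 60.7 kb downstream of the start. Its scores of 54.17, 76.33 and 106.86 (mean 79.1 ± 26.5, mean percentile 49.0) had their highest value in replicate 3, unlike those of Ifng, Ccl1, Il2, Cxcl9 and Cxcl15, which were highest in replicate 1.

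The signalling genes each had a region in 2 libraries, and in every case with replicate 3. Socs7 (ENSMUSG00000038485), a member of the Socs family, had a region in intron 2 of 9 at chr11:97373142-97373982, 11.3 kb from the nearest gene end. It scored 67.41 in replicate 2 and 87.48 in replicate 3 (mean 77.4 ± 14.2, mean percentile 56.2). Tnfaip3 (ENSMUSG00000019850), a ubiquitin-editing inhibitor of NF-κB, had a distal region at chr10:18959841-18960644, 51.7 kb downstream of its start, with scores of 54.65 in replicate 1 and 77.3 in replicate 3 (mean 66.0 ± 16.0, mean percentile 37.1). Stat5b (ENSMUSG00000020919), a transcription factor activated by cytokine and growth hormone receptors, had a region in intron 2 of 18 at chr11:100805272-100806263, 16.8 kb from the start. It scored 69.9 in replicate 1 and 56.66 in replicate 3 (mean 63.3 ± 9.36, mean percentile 33.7). It was also the 1 region of the 11 with another recurring ASC MyoD region within 100 kb, which was assigned to Kcnh4.

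**Figure D3:**
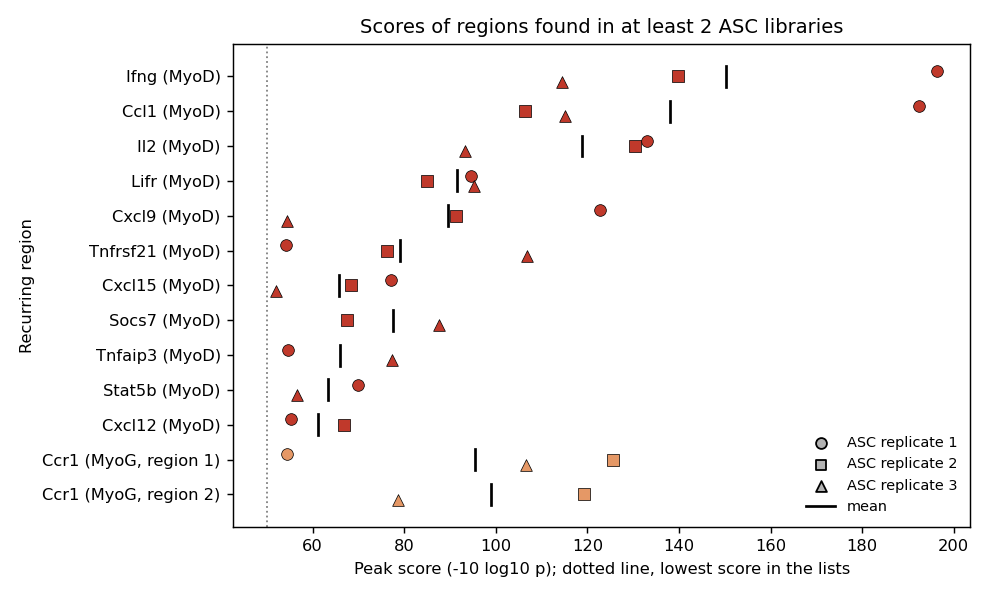
Scores of the recurring regions in each ASC library (x axis, minus 10 log10 p). Symbols give the replicate number, the vertical bars are means over the libraries with a peak, and the dotted line is the lowest listed score (50). Ifng, Ccl1 and Il2 have the highest MyoD means (150, 138 and 119), and the libraries of most regions are spread widely.

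Of the 21 pairs of regions found in 3 libraries, 13 had the same order in each library, and 7 of these had score ranges that did not overlap at all. Ifng lay above Lifr, Tnfrsf21 and Cxcl15 in this way, Ccl1 above Lifr and Cxcl15, and Il2 and Lifr above Cxcl15. Neighbors in the order (Ifng and Ccl1, Ccl1 and Il2, Il2 and Lifr, Lifr and Cxcl9, Cxcl9 and Tnfrsf21, Tnfrsf21 and Cxcl15) had overlapping ranges. This order is a description of peak calls, and scores do not measure binding strength.

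Compared with all 1986 recurring ASC MyoD regions, the 11 had a similar rank. Their median of mean scores was 79.1 against 82.3, and their median percentile was 56.1 (range 28.7 to 87.9) against 55.6. Of the 11, 6 were distal intergenic, 3 intronic, 1 promoter and 1 in a UTR, whereas all recurring regions were 35.4% distal, 35.0% intronic and 22.7% promoter. None had a mean percentile over 90. Over the 10 regions with a RefSeq start, the median distance from it was 30.5 kb (2.50 to 199.7), against 30.0 kb over the 1345 recurring regions of all genes that had one. By position, 7 lay downstream of the start, 3 upstream and 1 had no RefSeq start to measure from, and 5 lay inside the gene body.

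**Figure D4:**
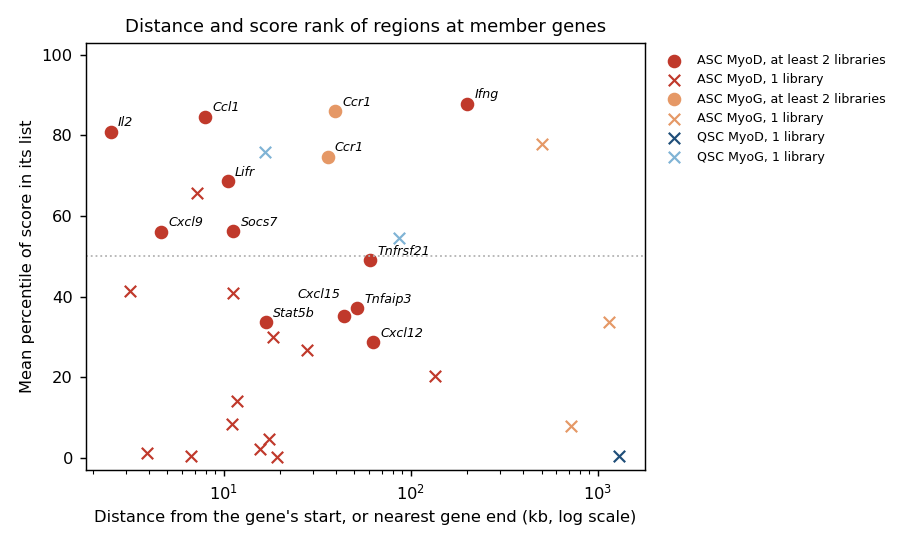
Distance of 32 of the 33 regions from the start of its gene (x axis, kb, log scale), or from the nearest gene end where no RefSeq start was at hand, against the mean percentile of its score in its library's list (y axis). Circles are regions with a peak in at least 2 libraries of a group and crosses are regions with a peak in 1 library. The recurring ASC MyoD regions run from percentile 28.7 to 87.9, and 12 of the 13 ASC MyoD crosses lie below 50.

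A further 13 ASC MyoD regions had a peak in 1 library, and replicate 3 held 11 of them. Replicate 1 held 2 (Ccl25 and Ccr7) and replicate 2 held none. Over all genes, the share of such single-library peaks was 39.9% in replicate 1, 29.4% in replicate 2 and 30.7% in replicate 3 (649 of 2114), against 84.6% in replicate 3 for the genes described here. The number of member peaks in replicate 3 (21) rests on these, since the recurring regions had peaks at 10, 9 and 10 of 11 places in replicates 1, 2 and 3. The scores ran from 50.1 to 83.4 with a median of 53.3, and 9 of 13 were under 60. Over all 2113 single-library ASC MyoD regions the median was 58.4.

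The highest of them was assigned to Tnfrsf1b, a receptor for TNF, in intron 1 of 9 (score 83.4). Tnfrsf19, another TNF receptor, had a peak annotated to its promoter at chr14:61034489-61035201 (score 64.1). Its nearer RefSeq window lay 2.74 kb from this peak, and the 250 bases before that start (GRCm38.p6, chr14:61037988-61038237, minus strand), shown as the second promoter call of the set, held 2 CANNTG, in capitals.
Tnfrsf19: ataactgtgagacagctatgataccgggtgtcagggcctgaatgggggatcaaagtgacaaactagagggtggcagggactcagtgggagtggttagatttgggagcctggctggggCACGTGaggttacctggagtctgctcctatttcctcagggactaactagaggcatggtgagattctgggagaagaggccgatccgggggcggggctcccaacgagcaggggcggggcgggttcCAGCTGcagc
Csf2rb and Csf2rb2 are neighboring paralogs that encode beta subunits of cytokine receptors, and they had 2 peaks each, all 4 in replicate 3, over 52.6 kb of chromosome 15 with scores of 50.1 to 63.9. Reads shared between these near-identical genes cannot be apportioned from peak lists, so the assignment to either gene is uncertain. The deposited annotation gave 1 of the Csf2rb2 peaks to a promoter, although it lay 17.5 kb from the nearest RefSeq start of that gene. Feedback inhibitors Socs1 (53.3) and Socs2 (57.4), the shared receptor subunit Il6st (50.1, in the 3′ UTR), a second Tnfaip3 region 134 kb upstream of its start (55.2), Ccl25 (62.1) and Ccr7 (50.8) completed this group with the Ifng peak given above.

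MyoG in ASCs had a recurring region without QSC peaks at 1 of the 26 genes (3.85%), beside a background of 2.1%, and at 1 of 233 coding genes (0.429%), beside 0.192%. The gene was Ccr1 (ENSMUSG00000025804), a receptor for chemokines such as Ccl3 and Ccl5. Its first region, chr9:123931483-123934074, scored 54.33, 125.53 and 106.56 (mean 95.5 ± 36.9, SD, n = 3; mean percentile 74.7) and lay 35.9 kb downstream of the start. A second, chr9:123927417-123931168, had peaks in replicates 2 and 3 with scores of 119.36 and 78.62 (mean 99.0 ± 28.8, mean percentile 85.9) and lay 39.4 kb downstream. These regions were 315 bp apart, both distal intergenic, and their 5 peaks were 1875 to 2750 bp wide, against a median of 661 bp over all ASC MyoG peaks. Neither had a MyoD peak in any library.

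Il1rapl1 and Il1rapl2, X-linked members of the interleukin 1 receptor family known mainly from neurons, had intronic MyoG peaks in ASC replicate 1, which had the longest list of the group. The scores were 70.0 and 50.7 for Il1rapl1 and 53.5 for Il1rapl2, and neither gene had an ASC MyoG peak in replicates 2 and 3. The recurring MyoD regions lay on chromosomes 3, 5, 6, 10, 11, 15 and 17, and none shared a chromosome with these MyoG peaks or those at Ccr1. With so few regions this is a description only, and no background was counted for it.

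None of the 3 QSC peaks was found in a second library. The MyoD peak at Il1rapl2 scored 50.05 in replicate 1 (percentile 0.585), at chrX:138873247-138873818. The MyoG peaks were at Csf2ra, the alpha subunit of a colony-stimulating factor receptor (58.9 in replicate 2, percentile 75.9, chr19:61211550-61212174, 16.6 kb from the start), and at Osmr, the receptor for Osm (54.02 in replicate 3, percentile 54.5, chr15:6960982-6961675, 87.0 kb upstream). All were distal intergenic. None of the 33 regions of the 26 genes had peaks of more than 1 group. The same share over the regions of all genes was not counted, so this does not set these regions apart.

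Of 106 further genes of the same pathways, whose symbols the rule does not match, 20 had a listed peak, beside 3158 of 21896 coding genes. A recurring MyoD region without QSC peaks was found at 8 of the 106 (7.55%, beside 5.92% of coding genes). These 8 were the NF-κB inhibitor Nfkbia, the TNF receptor adapters Traf4 and Traf5, the NF-κB kinase Map3k14, the receptors Ngfr, Tlr1 and Ghr, and the chemokine Xcl1. Traf4 had the highest score, at a promoter region with peaks in all 3 libraries (mean 221 ± 45.8, SD, n = 3; mean percentile 95.8), above every region of the 26 genes. Map3k14 had 2 intronic regions, with a mean of 102 ± 43.1 over 3 libraries and 72.1 ± 6.28 over 2 libraries. None of the 106 had a recurring MyoG region without QSC peaks, beside 0.192% of coding genes.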

How the data were processed

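The study sequenced DNA precipitated with MyoD or MyoG antibodies (ChIP-seq) from sorted QSCs and ASCs, 3 libraries per group. The submitters' processing notes name mm10, BWA 0.7.5, MACS and deepTools 3.5.0, and the handling of multi-mapping reads and of the 2 input libraries is not given in the sources used here. The authors called peaks in each library separately and deposited each with a gene, a gene part and a score (minus 10 log10 p). Deposited positions are in bp. The input libraries were not analysed here. The lists hold no read counts, so depth is unknown and no differential test on reads could be run.

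Regions were built by joining peaks of the 12 libraries that shared 1 bp or more (Python 3.11.15, pandas 2.3.3), and the steps were tested on simulated lists. Groups and replicate numbers came from the sample labels. Intervals are 95% exact binomial (scipy), also where the count was 0. RefSeq tables (GRCm38.p6, the assembly of mm10) gave starts and promoter windows, and all 26 genes matched by symbol. For the 5 genes without a window (among them Ccr7, Csf2rb, Socs2 and Socs7), distance runs from the nearest gene end. Of intronic peaks, 96.1% lay within the RefSeq span of their gene. The genes matching the symbols are named, except that 1 is not reported here and enters only the counts, and full values are given for genes with a recurring region. Genes, lists and comparisons were chosen with earlier results of these data known. Alternatives were a score of at least 80, chromosomes 1 to 19 and X, a distance limit of 100 kb, a merging gap of 500 bp, 50% reciprocal overlap, other numbers of libraries, promoters within 1 kb, counting genes, a replicate block and leaving out each replicate.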

Additional observations from a re-analysis of the deposited data

How the results depend on the processing

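No result turned its direction. At a score of at least 80, the MyoD difference between ASCs and QSCs fell from 13.7 to 5.67 peaks per library, that between MyoD and MyoG in ASCs from 11 to 4.33, and the genes with a recurring ASC MyoD region from 11 to 5. That last count was 7 when all 3 libraries were required and 20 when 1 sufficed. With 1 library sufficing, 4 genes had an ASC MyoG region in place of 1, 1 gene had a QSC MyoD region in place of 0, and 3 genes had an ASC MyoD promoter region in place of 1. With promoters limited to 1 kb, 0 genes had one. Leaving out each replicate in turn gave 10.2 to 16.2 peaks for MyoD between states, 1.33 to 2.83 for MyoG between states and 7.5 to 13.5 between the factors in ASCs. It gave 8 to 11 genes with a recurring ASC MyoD region, 1 with a MyoG region, 0 with a QSC MyoD region and 1 with a promoter region. The share over all genes was not counted for the left-out replicates or the 1 kb promoter limit. Nor was it counted for MyoG, QSC or promoter regions with 1 library sufficing. These counts of genes are therefore a description only. The MyoG difference was also 1.33 at a score of 80, within 100 kb and when genes were counted. The other alternatives moved a difference by less than 1 SD and moved a count of genes by at most 1.

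Replicate numbers are shared between groups, and whether same-numbered libraries share animals is not stated. Over the 3 numbers, the correlation of log2 peak number between groups ran from -0.99 to 1.00, the highest being that of both factors in ASCs. A correlation over 3 numbers cannot settle whether libraries are paired. Because pairing is not stated, the numbers were not used as pairs in the main results. With a replicate block the differences were again 13.7, 2.33 and 11 peaks, with SDs of 6.43, 2.31 and 6.93. Peak lists without reads limit all of these values, since peak number and score both depend on a depth that is unknown.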
